A study of Caenorhabditis elegans with 5 samples.

Results

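The piRNA gene clusters of Caenorhabditis elegans chromosome IV held 1153 of the 24897 peaks in the pooled ce11 list of ATTF-4 ChIP-seq in L4 larvae. A peak was taken where its summit lay between 4.5 and 7.0 Mb (the left cluster, 560 peaks) or between 13.5 and 17.2 Mb (the right cluster, 593 peaks) of chromosome IV. Position alone chose the peaks, and their signal played no part. The rest of the chromosome held 2825 of its 3978 pooled peaks and was the reference. The pooled list holds background entries beside peaks, and a peak below means any entry of a list. Of the 1153 cluster entries, 64 (5.55%) had a −log10 q-value of 1 or more, and the median was 0.125. That share was 6.62% in the rest of the chromosome and 7.07% over the whole list. Around the window edges, the outermost peaks of the left cluster had summits at 4503226 (pooled signal 11.4) and 6999045 (12.3), and the nearest peaks outside lay at 4498606 (11.4) and 7003613 (8.28). For the right cluster the outermost summits lay at 13502647 (8.11) and 17192950 (7.47), and the nearest outside lay at 13498553 (7.31) and 17209570 (10.7).

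ATTF-4 is an AT-hook protein, an AT-hook being a short segment that contacts the minor groove of DNA. ChIP-seq had been done on whole L4 larvae, the last larval stage, with pooled sexes, of the strain OP219, which carries the mutation unc-119(ed3) on chromosome III and the transgene wgIs219, an attf-4 gene with a C-terminal GFP-FLAG tag. All libraries came from this 1 strain, so they include no untagged group, and whole larvae mix germline and somatic nuclei. The 5 libraries formed 3 replicates that the labels number as biological (1, 2 and 2 libraries), and each replicate had 1 peak list. The replicate lists held 30000, 22227 and 30000 entries, of which 1514, 1048 and 1478 were cluster peaks. Nothing in the labels says whether the replicates were separate cultures, so p-values cover only the spread between these 3 lists. No list carries read counts, and the depth is unknown.

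piRNAs, called 21U-RNAs in the worm, are small germline RNAs that are loaded onto the Argonaute PRG-1 and direct it to foreign and transposon-like transcripts. Most worm piRNAs are made from a great many separate, very short genes crowded into broad regions of chromosome IV, within introns and between protein-coding genes. Each gene is transcribed by RNA polymerase II from its own promoter, and many carry an upstream motif with the core CTGTTTCA, which is bound by a dedicated complex that includes SNPC-4, PRDE-1, TOFU-4 and TOFU-5. In the Ensembl annotation of WBcel235, which is ce11, 14204 of the 14714 piRNA genes of chromosome IV had their 5′ end in the windows, 2816 in the left cluster and 11388 in the right. The rest of the chromosome had 510. The core lay 30 to 60 bp upstream of the 5′ end in 4931 of the 14204 genes (34.7%), most often at 46 bp.

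Sequences of WBcel235, as held in RefSeq, show the kinds of DNA compared below. The first 5 are piRNA genes beside strong cluster peaks, given 5′ to 3′ on the strand of the gene with 60 bases upstream. Capitals mark the 21U-RNA and, where it is present, the upstream core.
21ur-3160 (chrIV:14224908-14224988, plus strand): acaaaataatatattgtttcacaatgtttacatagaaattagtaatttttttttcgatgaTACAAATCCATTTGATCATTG
21ur-10285 (chrIV:14732560-14732640, minus strand): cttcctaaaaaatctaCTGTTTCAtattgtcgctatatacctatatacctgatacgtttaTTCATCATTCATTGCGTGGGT
21ur-1442 (chrIV:14705029-14705109, minus strand): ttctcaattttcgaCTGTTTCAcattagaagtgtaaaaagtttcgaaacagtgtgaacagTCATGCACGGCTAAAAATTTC
21ur-7839 (chrIV:5213330-5213410, minus strand): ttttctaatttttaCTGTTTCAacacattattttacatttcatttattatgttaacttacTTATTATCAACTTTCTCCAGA
21ur-13962 (chrIV:16989773-16989853, plus strand): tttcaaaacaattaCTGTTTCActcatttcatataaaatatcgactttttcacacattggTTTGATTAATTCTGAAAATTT
The other 4 are the cluster peaks of the final set, the peaks that the authors kept by the irreproducible discovery rate, shown on the plus strand for 100 bases on each side of the summit. Capitals mark the 5 bases centred on the summit.
Peak at rpl-20 (chrIV:4749949-4750149): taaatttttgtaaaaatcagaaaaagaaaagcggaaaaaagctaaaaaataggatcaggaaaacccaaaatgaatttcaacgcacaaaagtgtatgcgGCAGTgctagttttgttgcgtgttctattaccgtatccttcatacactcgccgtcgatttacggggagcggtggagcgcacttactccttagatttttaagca
Peak downstream of vha-8 (chrIV:6792436-6792636): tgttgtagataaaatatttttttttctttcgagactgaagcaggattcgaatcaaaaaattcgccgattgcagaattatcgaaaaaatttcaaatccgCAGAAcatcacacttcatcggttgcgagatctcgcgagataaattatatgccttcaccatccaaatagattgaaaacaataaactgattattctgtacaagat
Peak beyond Y37A1B.7 (chrIV:14034264-14034464): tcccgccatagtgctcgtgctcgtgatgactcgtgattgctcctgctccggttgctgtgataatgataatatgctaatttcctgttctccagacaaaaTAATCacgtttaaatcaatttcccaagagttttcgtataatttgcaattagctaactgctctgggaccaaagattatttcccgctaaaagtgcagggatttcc
Peak upstream of usp-4 (chrIV:6756534-6756734): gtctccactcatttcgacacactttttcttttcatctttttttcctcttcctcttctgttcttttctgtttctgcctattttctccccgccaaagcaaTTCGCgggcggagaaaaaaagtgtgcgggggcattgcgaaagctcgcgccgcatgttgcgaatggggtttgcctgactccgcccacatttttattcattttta
None of these 4 windows held the core on either strand, and only 13.1% of all cluster peaks had it within 100 bp of the summit.

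Peak summits were sparser in the piRNA clusters than in the rest of chromosome IV. The pooled list had 186 summits per Mb in the clusters, against 250.1 in the rest, a log2 ratio of -0.43. The replicate lists had 244, 169 and 238 summits per Mb in the clusters, against 292, 219.7 and 301 in the rest. Clusters were thus the sparser region in each of the 3 lists, and the log2 ratio averaged -0.32 ± 0.06 (SD, n = 3 lists; exact sign-flip permutation test, two-sided, p = 0.25, the smallest that 3 lists allow). The clusters covered 35.4% of the chromosome and held 29.0% of its pooled summits. The right cluster, which has the more crowded piRNA genes, was the sparser of the pair. Its log2 ratio to the rest was -0.48, -0.48 and -0.47 in the replicate lists, with -0.64 for pooled peaks. In the left cluster the log2 ratio was 0.02, -0.24 and -0.16 in the replicate lists (exact sign-flip permutation test, two-sided, p = 0.5), and -0.16 in the pooled list, so its difference from the rest of the chromosome was not larger than the spread between lists.

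**Figure D1:**
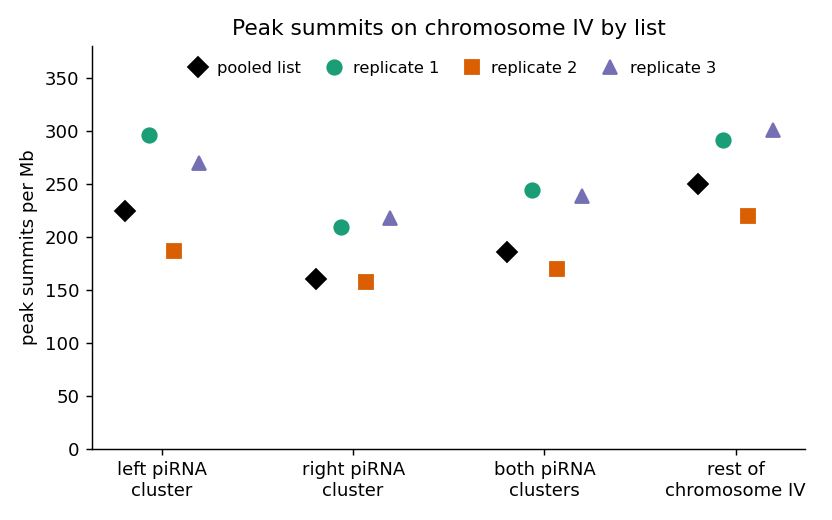
Peak summits per Mb (vertical axis) in the left cluster, the right cluster, both clusters and the rest of chromosome IV, with 1 point for each peak list. The right cluster had 160.3 summits per Mb in the pooled list, against 250.1 in the rest of the chromosome, and was lower than the rest in every list shown.

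Base composition moved with this difference. The clusters had a GC content of 33.0%, against 35.5% in the rest of the chromosome. All positions were therefore split by the GC within 100 bp on each side, at the values that cut the cluster positions into 3 GC classes of about equal size (28.9% and 35.3%). In the pooled list the low-GC class had 111 summits per Mb in the clusters and 164 in the rest, the middle class had 175 in the clusters and 219.8 in the rest, and the high-GC class had 278 in the clusters and 306 in the rest. Density climbed with GC in both regions, and clusters were the lower of the pair in every class. The same held in every class of each replicate list, where the log2 ratios ran from -0.44 to -0.07. Against the density of the rest of the chromosome within GC classes, the log2 ratio of the clusters was -0.17, -0.32 and -0.23 in the replicate lists and -0.29 in the pooled list.

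Windows at the same fractions of the other chromosomes gave a second scale, since 14714 of the 15363 annotated piRNA genes are on IV. The log2 ratio of the density inside such windows to that outside was -0.13 on chromosome I, -0.12 on II, -0.10 on III, -0.19 on V and 0.19 on X in the pooled list. Chromosome IV, at -0.43, was the lowest of the 6 in the pooled list and in each replicate list. The low count on the right side alone was not limited to chromosome IV, however. The right cluster had 160.3 pooled summits per Mb, against 164 in the window at the same fractions of chromosome V. In the replicate lists the right cluster had 209, 157 and 218 summits per Mb, against 223, 153 and 213 on V, so these were about alike. Outside its windows chromosome V had 228 pooled summits per Mb, against 250.1 in the rest of IV.

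Within the clusters, 100-kb bins with more piRNA genes tended to have fewer summits, but most of this lay between the left and the right cluster. The 10 bins richest in piRNA genes held 4179 of them and 140 pooled summits, and the 10 poorest held 304 piRNA genes and 252 pooled summits. The replicate lists gave 209, 159 and 224 summits in the 10 richest bins, against 305, 195 and 283 in the 10 poorest. The richest bin of all, centred on 16.05 Mb in the right cluster, held 486 piRNA genes and 14 pooled summits. Over the 62 bins, Spearman's rank correlation was -0.40 and Pearson's r was -0.42 for pooled summits, while the rank correlation was -0.42, -0.13 and -0.23 in the replicate lists. These are descriptions, since bins of 1 chromosome share their libraries, gene content and base composition. Inside the left cluster (25 bins) the rank correlation was -0.24 in the pooled list and 0.15 at the highest in a replicate list. Inside the right cluster (37 bins) it was -0.11 in the pooled list and 0.11 at the highest in a replicate list.

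**Figure D2:**
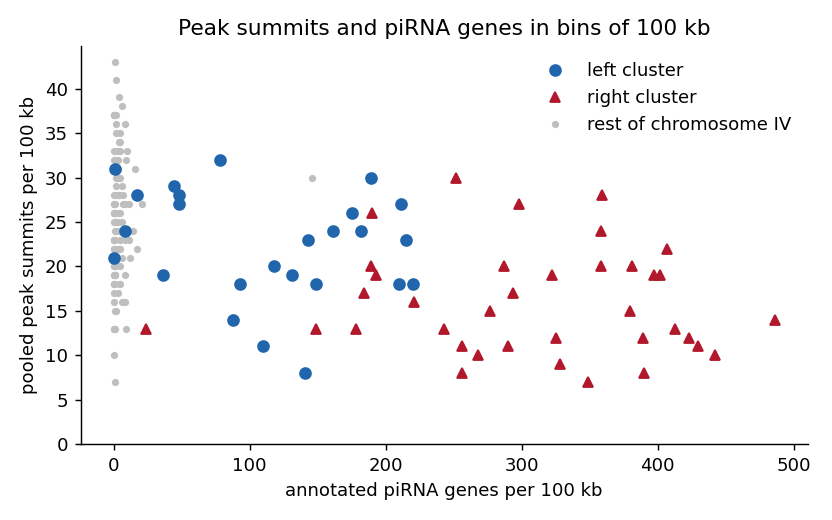
Pooled peak summits per 100 kb (vertical axis) against annotated piRNA genes per 100 kb (horizontal axis), 1 point for each bin of chromosome IV. Bins of the left cluster had 8 to 32 summits and bins of the right cluster 7 to 30, and within either cluster the points show little slope.

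Cluster peaks were not more frequent at piRNA genes than elsewhere in the clusters. Of the 1153 peaks, 412 (35.7%) had their summit within 200 bp of a piRNA 5′ end, against 45.4% of all cluster bases. The share was 41.7%, 42.0% and 39.7% of cluster peaks in the replicate lists, against the same 45.4% of bases. The difference was -9.65 percentage points for pooled peaks and -4.24 ± 1.25 over the replicate lists (SD, n = 3 lists; exact sign-flip permutation test, two-sided, p = 0.25, the smallest possible). Part of this lay between the clusters. Bases that close made up 56.4% of the right cluster, where summits were sparser, and 29.1% of the left. Within the left cluster the difference was -6.06 points for pooled peaks and -1.53, -4.21 and -6.07 in the replicate lists. Within the right cluster it was -8.66 points for pooled peaks and -1.09, -0.72 and -2.72 in the replicate lists. In the rest of the chromosome, 38 of 2825 peaks (1.35%) lay that close to a piRNA gene, against 1.51% of bases. The median distance from a cluster summit to the nearest piRNA 5′ end was 404 bp, 897 bp in the left cluster and 220 bp in the right. Counted over genes, 781 of the 14204 cluster piRNA genes (5.50%) had a pooled summit within 200 bp. For final-set summits, of which the clusters held only 4, the count was 0.

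Positions near piRNA genes were poor in GC, and the share of peaks near them differed by GC. Cluster peaks within 200 bp of a piRNA 5′ end had a GC of 31.0% ± 6.30 (SD over 412 peaks), and the others had 38.5% ± 7.38 (SD over 741 peaks). In the low-GC class, 71.4% of pooled cluster peaks were near a piRNA 5′ end, against 69.3% of bases. The share was 42.7% of peaks against 46.0% of bases in the middle class, and 16.1% against 18.9% in the high-GC class. Weighted over the classes, the difference was -1.92 points for pooled peaks and 0.36, -0.33 and 0.58 points in the replicate lists, with no shared sign. The classes did not go one way. In the replicate lists the difference was 0.30, 6.44 and 4.42 points in the low-GC class, above the bases in each list as in the pooled list. It was -1.98, -2.34 and -3.88 points in the middle class, below the bases in each list, and 2.25, -3.98 and 1.37 points in the high-GC class.

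**Figure D3:**
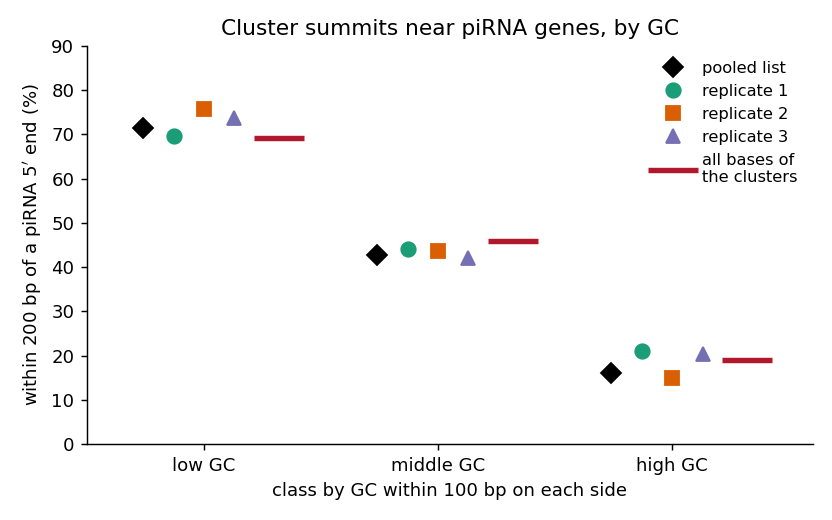
Share of cluster peaks with their summit within 200 bp of a piRNA 5′ end (vertical axis, %) for each peak list, by GC class (horizontal axis), beside the share of all cluster bases (red bars). Peaks and bases fall together as GC goes up, with 71.4% of pooled peaks and 69.3% of bases in the low-GC class, and 16.1% of peaks and 18.9% of bases in the high-GC class.

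Aligned on the 5′ ends of the 14204 cluster piRNA genes, no position stood out. Per 100-bp step from 500 bp upstream to 500 bp downstream, the number of pooled summits relative to an even spread over the clusters lay between 0.66 and 0.92. Its lowest value was in the 100 bp just upstream, the step that holds the core motif. In the replicate lists that step had 0.78, 1.07 and 0.75, and all steps lay between 0.72 and 1.10. Summits upstream and downstream were about equally many, 1057 pairs of a summit and a gene against 1119 in the pooled list.

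**Figure D4:**
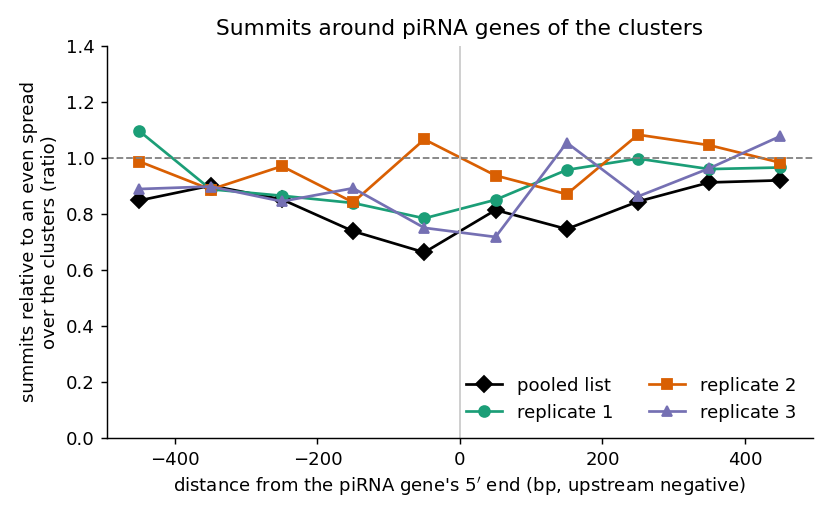
Number of summits relative to an even spread over the clusters (vertical axis, ratio; dashed line at 1) by distance from the 5′ end of the cluster piRNA genes (horizontal axis, bp, upstream negative), 1 line for each peak list. No list has a maximum at the 5′ end, and the pooled list runs between 0.66 and 0.92.

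The upstream core motif was no more frequent at cluster peaks than in cluster DNA at large. CTGTTTCA, searched on both strands, lay within 100 bp of the summit in 151 of 1153 cluster peaks (13.1%), against 14.6% of all cluster windows of that length. In the replicate lists 12.2%, 13.6% and 12.2% of cluster peaks held it, against the same 14.6% (mean difference -1.90 ± 0.84 points, SD, n = 3 lists; exact sign-flip permutation test, two-sided, p = 0.25). In the left cluster alone the pooled difference was 0.039 points. The clusters held 796 copies of the core per Mb, against 81.8 in the rest of the chromosome, where 1.49% of peaks and 1.55% of windows held one. The share near piRNA genes was below that of the bases for genes with and without the core. Summits within 200 bp of a piRNA gene with the core made up 19.2% of cluster peaks, against 21.3% of bases, and those near a gene without it made up 23.8%, against 33.6% of bases. In the replicate lists these shares were 19.9%, 19.8% and 19.4% for genes with the core, and 29.7%, 31.8% and 28.8% for genes without it. The gap to the bases was the wider for genes without the core, and the difference between the gaps was not tested. Cluster peaks had a mean GC of 35.8%, against 33.0% for the clusters, and the shares with the core were not split by GC class.

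Signal, the peak strength in the authors' lists, was slightly lower in the clusters in the pooled list. Its median was 9.07 in the clusters, against 9.30 in the rest of the chromosome. Within the replicate lists the median difference was -0.13, 0.0017 and -0.14 (exact sign-flip permutation test, two-sided, p = 0.5), so the lists did not share a sign. Within the clusters, peaks near piRNA genes had the lower median signal. Median pooled signal was 8.83 within 200 bp of a piRNA 5′ end, against 9.19 farther away, and the difference was -0.20, -0.15 and -0.23 in the replicate lists (exact sign-flip permutation test, two-sided, p = 0.25, the smallest possible). This did not hold throughout. In the left cluster alone the difference was -0.22, -0.077 and 0.080 in the replicate lists (exact sign-flip permutation test, two-sided, p = 0.75). By GC class it was 0.017, 0.14 and -1.003 for pooled peaks from low to high GC, so the pooled difference lay in the high-GC class. In the replicate lists it was -0.32, 0.089 and 0.33 in the low-GC class, with no shared sign. It was -0.062, -0.15 and -0.30 in the middle class and -0.023, -0.32 and -0.23 in the high-GC class, negative in each list. Weighted over the classes, the signal difference was -0.45 for pooled peaks and -0.12, -0.15 and -0.11 in the replicate lists. From the lowest to the highest quartile of cluster peaks by pooled signal, 38.4%, 39.2%, 38.5% and 26.7% lay near a piRNA gene. Among the 25 strongest, 2 did.

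Few cluster peaks recurred in every replicate. Only 17 of 1153 cluster peaks (1.47%, 95% Clopper-Pearson interval 0.861 to 2.35) had a summit within 100 bp in all 3 replicate lists, against 72 of 2825 (2.55%, 2.00 to 3.20) in the rest of chromosome IV and 2.6% of the whole pooled list. These intervals cover counting error only. Of the 17, 1 lay within 200 bp of a piRNA 5′ end, out of 412 such peaks, and 16 lay farther away, out of 741. The 1 peak was in an intron of eps-8, a regulator of the actin cytoskeleton, 53 bp from a piRNA 5′ end, with a pooled signal of 9.15 and replicate ranks of 29166, 12246 and 18064. Of the 1153 cluster peaks, 321 were in no replicate list, 584 in 1 list and 231 in 2. These counts were 699, 1481 and 573 of 2825 peaks in the rest of chromosome IV. Over the whole pooled list they were 6359, 12999 and 4891 of 24897. In the final set were 4 of 1153 cluster peaks (0.347%, 0.0946 to 0.886), against 9 of 2825 (0.319%) in the rest of the chromosome and 0.695% of the whole pooled list. The shares of cluster and other chromosome IV peaks in the final set were thus not distinguishable at these counts.

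The 4 final-set peaks of the clusters lay away from piRNA genes, at protein-coding genes or in intergenic DNA far from them. None was within 200 bp of a piRNA 5′ end, where 35.7% of all cluster peaks were. With only 4 peaks this cannot be told apart from that share. The strongest, with a pooled signal of 67.6 and rank 31, lay between the divergent genes rpl-20, which encodes a protein of the large ribosomal subunit, and Y17G9B.5, and the nearest piRNA 5′ end was 17675 bp away. It was strong in each replicate, with signals of 19.0, 17.0 and 31.9 and ranks of 40, 33 and 42. The peak downstream of vha-8, which encodes a subunit of the vacuolar proton pump, had a pooled signal of 32.7 but was uneven, with a replicate signal of 19.4 (rank 38) in replicate 1, none in replicate 2 and 3.66 (rank 28146) in replicate 3. The peak upstream of usp-4 had a pooled signal of 29.5 and was found in all 3 lists, with signals of 8.29, 6.46 and 18.0, 2479 bp from a piRNA 5′ end. The only one in the right cluster, 9416 bp from the nearest protein-coding 5′ end (Y37A1B.7), had a pooled signal of 30.9, with replicate signals of 9.45 and 19.7 in replicates 1 and 3 and no summit in replicate 2. At 837 bp from 21ur-2841, it was the closest of the 4 to a piRNA gene.

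**Figure D5:**
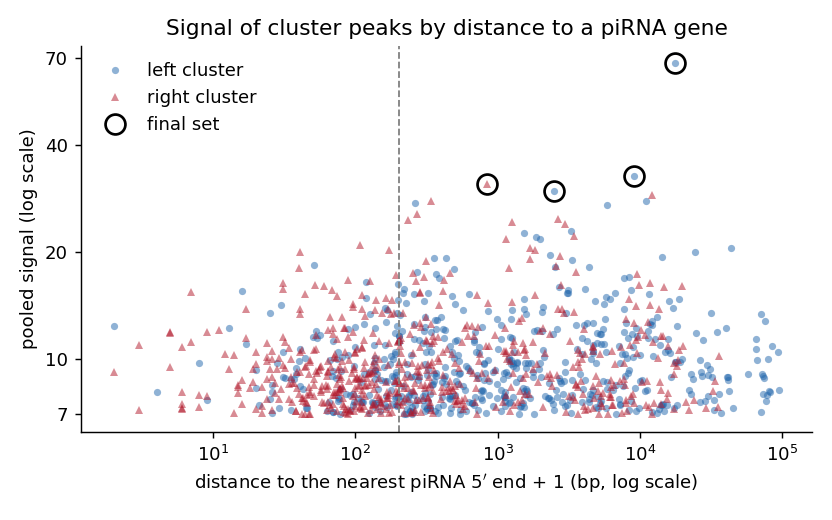
Pooled signal (vertical axis, log scale) of the 1153 cluster peaks against distance to the nearest piRNA 5′ end plus 1 bp (horizontal axis, log scale), coloured by cluster, with the final set circled and a dashed line at the 200 bp limit. All 4 circled peaks lie right of the line, at 837 to 17675 bp, and the strongest peak left of it has a signal of 20.9.

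The other strong peaks of the left cluster also lay mostly at protein-coding genes. After the final-set peaks came a shared promoter of vha-8 and C17H12.2 (signal 27.8), which had a summit in all 3 replicate lists with signals of 3.07, 12.6 and 11.6. Next were an intron of the forkhead factor gene fkh-7 (27.3) and a promoter shared by mif-4 and ipla-6 (27.1). An intron of lag-1, the DNA-binding effector of Notch signalling, had 22.9 and was found in replicate 3 only. A peak near str-166, a chemoreceptor gene, lay beside the snoRNA gene T08B6.64 (22.5). The last of the 10 strongest were downstream of htp-1, a component of the meiotic chromosome axis (22.1), and between genes near the autophagy gene bec-1 (21.8). Of these 10, the fkh-7 peak lay closest to a piRNA 5′ end, at 262 bp, so 0 of the 10 were within 200 bp, where 23.0% of all left-cluster peaks were.

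Among the strong peaks of the right cluster outside the final set, the glutamine synthetase gene gln-3 had a pair. The one in its intron (27.8) was found in replicate 3 only, and the one at its 5′ end (25.6) was found in all 3 lists with signals of 9.05, 3.51 and 12.6. The piRNA gene 21ur-5 lay between them, 338 and 270 bp from the summits. The promoter of ntl-11 (24.8), a gene of the CCR4-NOT deadenylase complex, was also found in all 3 lists. The promoter of Y43D4A.5 had 24.5 beside the tRNA gene Y43D4A.t1, and a peak over the ncRNA genes Y37A1B.330 and Y37A1B.333 had 24.3. Another 3 lay over the pseudogene srz-41 (24.0), between Y57G11C.3 and the mitochondrial ribosomal protein gene mrps-7 (22.2), and between Y105C5A.1268 and Y105C5A.1272 (21.7).

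The strongest peaks that did lie near a piRNA gene had pooled signals of 16.4 to 20.9. The top one (signal 20.9, rank 630) was 106 bp downstream of the 5′ end of 21ur-3160, a gene without the core in its upstream window, and lay beside the tRNA gene F02H6.t1. It had replicate signals of 11.2 and 6.15 in replicates 1 and 3 and no summit in replicate 2. The next, 171 bp upstream of 21ur-10285 in an intron of Y57G11C.42, had a pooled signal of 20.3. The one after that, 40 bp upstream of 21ur-1442 (20.001), had the core within 100 bp of its summit and no summit in any replicate list. The peak 50 bp upstream of 21ur-7839 (18.4) was found in replicates 1 and 3 with signals of 3.56 and 10.4. Those at 21ur-130 (18.0), 21ur-6372 (17.2), 21ur-1989 (16.7), 21ur-9115 (16.5), 21ur-3089 (16.5) and 21ur-13962 (16.4) completed the first 10. Of the 10, 5 were found in 2 replicate lists, 4 in 1 list and 1 in none, where 231 of all 1153 cluster peaks were in 2 lists, 17 in all 3 and 321 in none. Of their 10 nearest piRNA genes, 7 had the core, against 34.7% of all cluster piRNA genes. These 10 were picked by signal and position, and neither count was tested.

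Cluster peaks lay less often in protein-coding promoters than peaks elsewhere on the chromosome, and cluster bases did so to about the same extent. The promoter window of a protein-coding gene was set to reach 1000 bp upstream and 200 bp downstream of the gene's 5′ end. It held 227 cluster peaks (19.7%), against 712 (25.2%) in the rest of chromosome IV. The difference was -5.13, -7.27 and -5.93 points in the replicate lists (exact sign-flip permutation test, two-sided, p = 0.25, the smallest possible). The clusters also hold fewer promoters. These windows covered 16.6% of cluster bases and 21.9% of the rest, a gap about as wide as that of the pooled peaks. In both regions promoters had more than their share of summits. A difference beyond that of the bases was not tested. In the clusters, exons had the most summits per Mb (246), followed by promoters (221), introns (196), the 1000 bp beyond a gene's 3′ end (155) and other DNA (138). In the pooled list exons were the densest class in both clusters, with 249 summits per Mb in the left and 243 in the right. Near a piRNA 5′ end lay 20.7% of promoter peaks, 17.8% of exon peaks, 41.3% of intron peaks and 55.1% of peaks in other DNA in the pooled list, against 34.4%, 24.6%, 48.2% and 57.8% of the bases of those classes. The replicate lists differed for other DNA, where the share was 60.4%, 63.0% and 61.6%, above the bases in each list. For introns it was 49.7%, 42.2% and 40.8%. The promoter and exon shares were below the bases in each replicate list.

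Cluster summits were more frequent beside tRNA genes, which RNA polymerase III transcribes, than their share of the bases. Within 200 bp of a tRNA gene lay 25 of the 1153 cluster peaks (2.17%), against 0.306% of cluster bases, and 20 of these were in the right cluster. The replicate lists had 21, 14 and 19 such peaks (1.39%, 1.34% and 1.29%). In the rest of the chromosome 20 of 2825 pooled peaks (0.708%) lay that close, against 0.125% of bases, so tRNA genes there stood out as well. Of the 41 cluster tRNA genes, 25 had a pooled summit within 200 bp. Peaks beside them had a mean GC of 43.2%. DNA near cluster tRNA genes held 1317 pooled summits per Mb, and 1106, 738 and 1001 in the replicate lists. The high-GC class of the clusters held 278 pooled summits per Mb, and 302, 204 and 336 in the replicate lists. That class takes all positions above 35.3% GC and is not matched to the DNA beside tRNA genes. Whether GC has a part in the difference was not tested. Only 4 of the 25 peaks also lay within 200 bp of a piRNA 5′ end. This comparison was chosen after its values were seen, and no test was made of it.

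Genes that make and use piRNAs had peaks of middling signal and none in the final set. Of 41 genes on a list of piRNA transcription, processing and Argonaute pathway genes, 34 were matched by name in the annotation. A final-set summit in the promoter window or gene body was found for 0 of the 34, where 0.655% of all protein-coding genes had one. A pooled summit lay in the promoter window of 17 (50%), against 32.3% of all protein-coding genes, and in the promoter or gene body of 28 (82.4%), against 58.0%. These shares were not tested and not matched for gene length. The median of the strongest signal per gene was 11.3, against 10.4 over all protein-coding genes with a peak. Among the transcription factors of piRNA genes, signals were 10.9 for snpc-4, 10.8 for tofu-4, 10.7 for attf-6 and 13.1 for the forkhead gene unc-130. The attf-6 peak was in no replicate list, and the other named peaks were in 2 lists each. prde-1 and tofu-5 had no peak. The strongest 5 genes were tofu-1 (16.8), henn-1, which encodes the methyltransferase of small RNA 3′ ends (15.9), ego-1 and rrf-1, neighbouring RNA-dependent RNA polymerase genes that share 1 peak (14.9), and nrde-2 of the nuclear RNAi pathway (13.9). The tofu-1 peak was in 1 replicate list, the henn-1 peak and the shared peak were in 2, and the nrde-2 peak was in none. prg-1 itself had 5 summits in its gene body, the strongest with 12.0 and found in replicate 3 only. The germ granule gene pgl-1 lies in the left cluster and had a signal of 12.6, found in replicate 3 only.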

How the data were processed

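Per the labels, ChIP-seq of tagged ATTF-4 was done on 5 libraries of 3 biological replicates, which form 1 group. Per the deposited file notes, the authors called peaks for each replicate and on all replicates together, each against a control, and derived the final set by the irreproducible discovery rate. Each peak of the deposited lists has a signal and, on a −log10 scale, a q-value. The aligner and peak caller are not given in the sources. Except for the final set, the lists hold background entries beside peaks. Signal was compared only within a list, and depth is unknown.

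Summits, counted from 1, were placed in the cluster windows and set against Ensembl release 115 genes and the RefSeq sequence of WBcel235 (ce11). All 7 chromosome names matched. ce10 lists were used with the same window positions and no conversion of coordinates. Shares of peaks were set against shares of all bases of the same region. Differences were taken per replicate list and tested by an exact sign-flip permutation test over the 3 lists, two-sided, whose smallest p is 0.25. Shares have 95% Clopper-Pearson intervals. A summit took the first class that held it, of promoter, exon, intron, downstream and other. Peaks were named by rule: all final-set peaks, the 10 strongest per cluster, and the 10 strongest near a piRNA 5′ end. Of these, 1 peak of the right cluster is not reported here. For the pathway list the strongest 5 genes were named, and prg-1, pgl-1 and the transcription genes were added after their values were seen. The members and lists were chosen with earlier results of these data known, and the GC, tRNA and other-chromosome comparisons were chosen after seeing the data. The functions for density, near share, signal and motif were tested on simulated data. Tables were made with pandas 2.3.3 and numpy 2.4.6 in Python 3.11.15, intervals with scipy 1.17.1, and plots with matplotlib 3.10.9.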

Additional observations from a re-analysis of the deposited data

How the results depend on the processing

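Of 78 values under other settings, 66 kept the direction or range of the reported value, 4 reversed and 8 moved. The median signal difference between the clusters and the rest of chromosome IV was 0.0017 in replicate list 2 alone. The near-piRNA difference was 0.36 and 0.58 points within GC classes of replicate lists 1 and 3, and the difference in the core motif was 0.039 points in the left cluster alone. The cause of each was not tested. The share of cluster peaks found in every replicate list was 0.781% at a distance of 50 bp, 4.68% at 200 bp and 0.0867% with the 1000 strongest peaks of each list. With 1 replicate left out and only the other lists required, it lay between 4.51% and 12.4%. These shares are given for the clusters only, so whether the gap to the rest of the chromosome held at these settings was not tested. The clusters held 2 final-set peaks on ce10, against 4 on ce11, and 1 among the stronger 50% of the ce11 final set. In the rest of chromosome IV these counts were 10, 9 and 6. The near-piRNA difference of -9.65 points in the pooled list was -5.81 points in introns and other DNA alone, and -1.92 points within GC classes. Density kept its direction under every setting run for the pooled list, from -0.16 in the left cluster to -0.64 in the right (log2). With 3 lists no test can pass 0.05. The lists carry no read counts, so thin coverage of a region cannot be told apart from fewer binding sites.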

Other observations

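Summits also lay beside other small RNA genes of the clusters, above the share of bases for snoRNA and snRNA genes and below it for miRNA genes, in small counts. Within 200 bp of a snoRNA gene lay 6 of 1153 cluster peaks (0.520%), against 0.162% of cluster bases, and 23 of 2825 peaks (0.814%) in the rest of chromosome IV, against 0.186% of bases. For snRNA genes there were 5 cluster peaks (0.434%, against 0.13% of bases) and 5 in the rest (0.177%, against 0.107%). For miRNA genes there was 1 cluster peak (0.0867%, against 0.142% of bases) and 7 in the rest (0.248%, against 0.131%). These counts come from the pooled list and were not tested.

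The 5 cluster peaks closest to a piRNA 5′ end had pooled signals of 7.19 to 12.4, on both sides of the cluster median of 9.07. A summit 1 bp upstream of 21ur-15608, in an intron of the nuclear hormone receptor gene nhr-46, had a pooled signal of 12.4 and a signal of 9.06 in replicate 3, and no summit in replicates 1 and 2. A summit 1 bp downstream of 21ur-4917, in an intron of ent-4, had a pooled signal of 9.19 and was also found in replicate 3 only. The summits nearest to 21ur-11322 (10.9), 21ur-14927 (7.19) and 21ur-7377 (8.08), at 2 or 3 bp, were found in replicate 2 only.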
